A study of Mus musculus with 49 samples.

Results

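Genes of the mitochondrial respiratory chain were followed in 49 arrays from ankle, synovial fluid cells and blood leukocytes of mice with serum-transferred arthritis. The set holds 57 of 8251 measured genes: every gene whose symbol begins with Nduf, Uqcr or Cox4 to Cox8, without the assembly factors, together with Sdha to Sdhd, Cyc1 and Cycs. By complex these are 29 genes of complex I, 4 of complex II, 8 of complex III, 15 of complex IV and cytochrome c. A gene with more than 1 probe set, the group of short probes that reports a transcript, was read from its brightest probe set by the mean of all 49 arrays, which was a choice among several for 14 genes. The 8 probe sets annotated to several genes were not used.

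The mice were males on the B6 background, 6 weeks old per the labels, and the labels name no mutated allele or other agent. The day counts from the first injection of arthritogenic serum, and day 0 is the group without arthritis. Whole ankle, a mixture of cells, was taken at day 0 (4 arrays), day 1 (2), day 3 (3), day 7 (4), day 12 (3) and day 18 (3). All cells of the synovial fluid were taken at day 3 (3), day 7 (4), day 12 (3) and day 18 (3), and fluid of days 0 and 1 was not analysed here. Leukocytes of peripheral blood, after lysis of red cells, were taken at days 0, 1, 3, 7 and 12 (3 each) and day 18 (2).

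The respiratory chain passes electrons from nutrients to oxygen in the inner mitochondrial membrane and pumps protons, which drive ATP synthesis. Complex I takes electrons from NADH and complex II from succinate. Complex III hands them to cytochrome c, a small mobile carrier, and complex IV, cytochrome c oxidase, reduces oxygen. Complex IV holds pairs of interchangeable subunits: Cox6a2, Cox7a1 and Cox8b are forms of contractile tissue, while Cox6a1, Cox7a2 and Cox8a are found in most cells. Skeletal muscle is rich in mitochondria, whereas neutrophils rely largely on glycolysis.

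Values are log2 intensities after RMA, a method that corrects background, equalises the distributions of the arrays and summarises the probes of a probe set. The 95th percentile of 34 negative control probe sets was 6.85 on this scale and is used as the level of background. Of the 57 genes, 48 had at least 1 group mean above it, 36 were above it in all 16 groups, and 9 were never above it. These are Cox5a, Cox7a1, Cox8a, Ndufa1, Ndufa12, Ndufc2, Ndufs4, Ndufv3 and Sdha. What is said of them rests on group means under this cutoff, within the range of the negative controls, whose median was 4.40. Folds are given only where both means were above 6.85. The 12 genes read by probe sets whose name suffix marks shared or non-unique probes, among them Cox6a1, Cox6c, Cox8b, Ndufa5, Sdhb and Uqcrb, may include signal of related sequences.

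The promoters of both genes of the Cox7a pair, of Cox6a1 and of Cycs are shown because the contrast of muscle and common forms, and the level of Cycs in fluid, recur in the values given further on; the table of sequences gave no entry for Cox6a2. Each is the 250 bases before a start of transcription on the gene's own strand, from RefSeq on GRCm38.p6. Bases are in lower case, with matches to any of 5 motifs in capitals. The start used for Cox7a2 lies inside the annotated gene (79755241 to 79771422), so it is not the outermost one.
Cox7a1, chr7:30183921-30184170, plus strand: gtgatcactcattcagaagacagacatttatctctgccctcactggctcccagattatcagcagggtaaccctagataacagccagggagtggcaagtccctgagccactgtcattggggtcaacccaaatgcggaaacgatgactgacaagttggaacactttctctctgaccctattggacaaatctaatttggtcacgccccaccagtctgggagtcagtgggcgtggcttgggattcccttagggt
Cox7a2, chr9:79759854-79760103, minus strand: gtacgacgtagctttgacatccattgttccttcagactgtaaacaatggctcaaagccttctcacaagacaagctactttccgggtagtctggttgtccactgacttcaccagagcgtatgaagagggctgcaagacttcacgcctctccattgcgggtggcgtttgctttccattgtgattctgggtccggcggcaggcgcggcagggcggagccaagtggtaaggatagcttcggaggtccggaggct
Cox6a1, chr5:115348959-115349208, minus strand: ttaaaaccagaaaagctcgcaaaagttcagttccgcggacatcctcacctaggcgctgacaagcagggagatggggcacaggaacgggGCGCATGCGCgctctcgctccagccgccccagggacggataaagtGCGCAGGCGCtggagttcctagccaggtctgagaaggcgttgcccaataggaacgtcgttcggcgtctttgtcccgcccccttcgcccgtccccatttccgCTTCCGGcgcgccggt
Cycs, chr6:50566570-50566819, minus strand: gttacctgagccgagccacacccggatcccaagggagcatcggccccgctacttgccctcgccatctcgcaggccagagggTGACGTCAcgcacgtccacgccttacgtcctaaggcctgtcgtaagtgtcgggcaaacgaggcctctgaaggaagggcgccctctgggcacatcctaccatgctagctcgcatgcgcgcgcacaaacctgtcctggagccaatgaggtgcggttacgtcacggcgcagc

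The motifs were searched on both strands of the 250 bases before and 50 after the start, for the 45 members with an entry. They were GCGCANGCGC of NRF1 and CCGGAAG of GABPA, which are known regulators of respiratory genes, AAGATGGC of YY1, CTANNNNTAG of the muscle factor MEF2, and TGACGTCA of CREB. The MEF2 pattern takes any base at its N positions and is looser than the site of that factor, so a match need not be such a site. NRF1 letters stood in 7 of the 45 (15.6%, against 5.19% of 27025 genes with a promoter entry and 9.97% of 6573 such genes on the array). For GABPA it was 10 of 45 (22.2%, against 9.93% and 17.1%), for YY1 5 of 45 (11.1%, against 3.19% and 4.61%), for CREB 3 of 45 (6.67%, against 2.03% and 3.16%) and for MEF2 1 of 45 (2.22%, against 4.23% and 3.68%). Cox6a1 held 2 NRF1 matches, which do not overlap, and 1 of GABPA, and Cycs held the CREB letters. The Cox7a1 promoter, and that of Cox7a2 at the start used here, matched none of the 5 motifs in this window.

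The number of arrays, 2 to 4 in a group, limits the precision of every value, and pairs of replicates had a Pearson r of 0.941 to 0.995 over all probe sets. The labels use the words biological replicate for blood alone, so for the other tissues p-values measure the spread between samples, which may be technical. Ankle RNA had a double amplification, which other tissues mostly did not, so tissue and preparation cannot be told apart. The listed markers of ankle tissue were present: the mean of 20 skeletal muscle markers was 6.75 to 8.73, against 5.38 to 5.67 in fluid and 5.57 to 5.91 in blood, and ankle also held fibroblast markers (9.29 to 10.68). Replicate 1 of ankle days 0, 1, 7 and 12 carried the liver transcript Alb at 8.95, 6.39, 8.41 and 10.65, while every other ankle array was at or below 5.19. In fluid, the labels give another amplification for day 7 replicate 4 and day 18 replicate 3, and the cells of day 3 replicate 1 and of day 7 replicate 1 came from washing out the joint. Blood day 3 replicate 3 also carries a description of its own. In all bulk samples, fewer cells of a type and less RNA per cell cannot be told apart.

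On single arrays the median of the 57 genes lay highest in ankle day 0 replicate 2 (8.58). Ankle day 7 replicate 4 (7.64) and fluid day 7 replicate 4 (7.59) lay far below the other arrays of their groups. The group mean of this median in ankle was 8.40 at day 0, 8.15 at days 7 and 12 and lowest at day 18, and ran from 8.07 to 8.36 in fluid and from 7.58 to 7.82 in blood. The level across genes compares probes and is a description of these arrays alone.

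**Figure D1:**
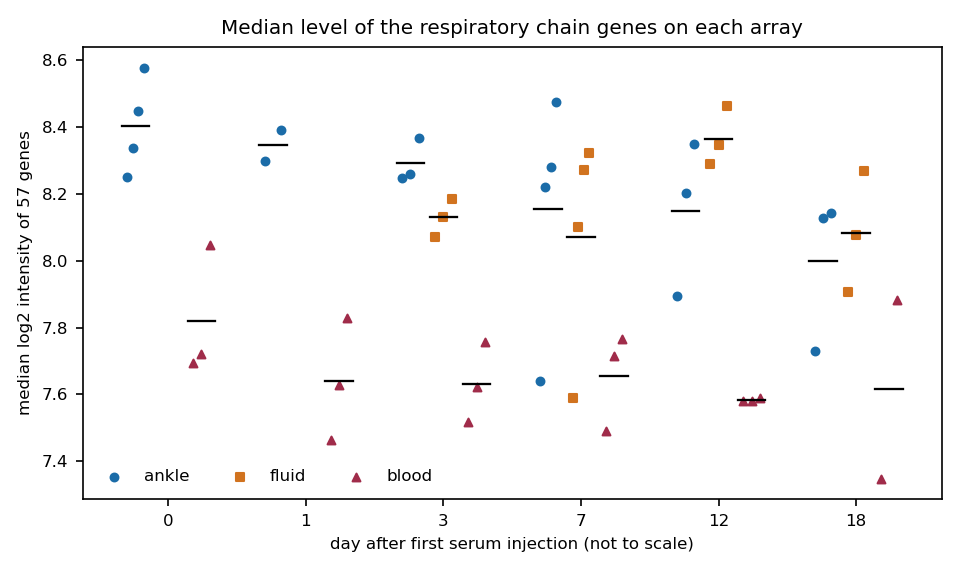
Median log2 intensity of the 57 respiratory chain genes on each array (vertical axis) by day after the first serum injection (horizontal axis, not to scale); each point is 1 array, colours and shapes are tissues, and black lines are group means. Group means lie between 8.15 and 8.40 in ankle up to day 12 and lower at day 18, and from 8.07 to 8.36 in fluid and 7.58 to 7.82 in blood.

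The muscle forms of complex IV varied strongly between ankles of the same day. Cox7a1, the muscle form of subunit 7a, was measured at 4.71, 6.27, 5.93 and 4.67 in the 4 ankles of day 0. It was 5.96 and 4.16 on day 1, 4.31, 4.22 and 6.47 on day 3, and 4.15, 3.61, 6.63 and 4.99 on day 7. The highest arrays, day 3 replicate 3 and day 7 replicate 3, exceeded all ankles of day 0, and no other array of those 2 days did. At day 12 it was 4.48, 3.74 and 3.81, below all 4 arrays of day 0, and it was 5.01, 4.77 and 4.08 on day 18. All of these values lie under the background level of 6.85.

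Cox6a2, the muscle form of subunit 6a, was above background on every ankle array. The arrays of day 0 gave 8.20, 7.78, 8.57 and 7.96, followed by 8.19 and 6.95 on day 1 and 7.62, 7.28 and 8.25 on day 3. Later values were 7.71, 7.06, 8.48 and 8.29 on day 7, 7.56, 7.11 and 7.23 on day 12 and 7.80, 7.45 and 7.67 on day 18. Day 3 replicate 3 and day 7 replicate 3 were the highest of their days here too, and the 3 arrays of day 12 again lay under all of day 0. The difference from day 0 at day 12 was -0.83 ± 0.33 for Cox6a2 and -1.39 ± 0.66 for Cox7a1 (log2 ± SE), and neither passed limma's test over all genes (adjusted p = 0.218 and 0.323). With array weights, a fit that gives less weight to noisier arrays, both passed limma's test (adjusted p = 0.00656 and 0.0488). With the muscle marker level as a covariate the differences were -0.16 for Cox6a2 (adjusted p = 0.808 by limma) and 0.00 for Cox7a1 (adjusted p = 1 by limma).

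The mean of the skeletal muscle markers, among them the actin Acta1 and the creatine kinase Ckm, was also highest on these 2 arrays within days 3 and 7, although Acta1 by itself was higher in day 7 replicate 4. The mean was 7.71, 8.20, 8.73 and 8.31 on the arrays of day 0. It was 7.84 and 7.16 on those of day 1, and 7.11, 7.19 and 8.36 on those of day 3. Later it was 7.14, 6.75, 8.44 and 8.27 on day 7, 7.73, 7.09 and 7.16 on day 12 and 8.12, 7.84 and 7.94 on day 18. Both genes were therefore set against this mean within days, in a limma fit with 1 mean per day and a common slope, an analysis chosen after their values had been seen. Over all genes 0.351% had a positive slope past the threshold and 0.0121% a negative one, and 14 of the 29 positive genes were muscle markers that make up the mean. Of the 57 respiratory chain genes 2 were called positive, Cox7a1 and Cox6a2, and none negative. A log2 unit of muscle marker level went with 1.52 ± 0.23 log2 units of Cox7a1 (SE; adjusted p = 0.00237 by limma) and with 0.73 ± 0.13 of Cox6a2 (adjusted p = 0.0086 by limma).

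The slopes of the common partners did not pass the test. The slope of Cox7a2 was 0.19 ± 0.10 (adjusted p = 0.617 by limma) and that of Cox6a1 -0.36 ± 0.12 (adjusted p = 0.526 by limma); the difference in slope between a muscle form and its partner was not tested. The median slope was 0.05 over the 57 genes, 1.08 over the 20 muscle markers and 0.01 over all genes. The call on Cox7a1 held with any 1 ankle array left out, whereas that on Cox6a2 was lost without day 7 replicate 2 (slope 0.67, adjusted p = 0.106 by limma) or day 7 replicate 3 (0.73, adjusted p = 0.0508 by limma). With array weights 7 members were called positive, among them Cox7a2 (slope 0.25, adjusted p = 0.0498 by limma), and 2 negative, among them Cox6a1 (slope -0.35, adjusted p = 0.0232 by limma). The share of all genes called with these weights was not taken.

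**Figure D2:**
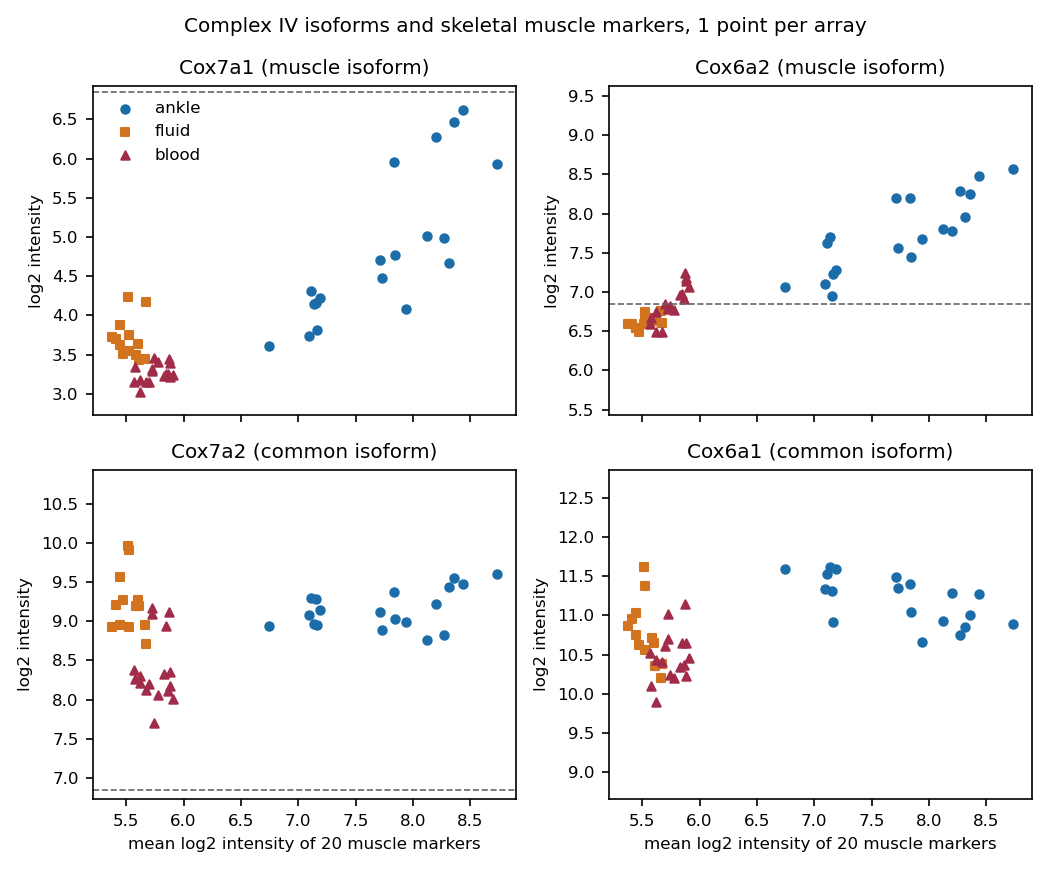
Log2 intensity of 4 complex IV subunits (vertical axes, all spanning the same range) against the mean log2 intensity of 20 skeletal muscle markers (horizontal axes), 1 point per array, with the background level of 6.85 dashed where it falls in the panel. Within ankle, Cox7a1 and Cox6a2 rise with the markers (slopes within days of 1.52 and 0.73), and Cox7a2 and Cox6a1 have slopes of 0.19 and -0.36 that did not pass the test without array weights.

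As changes relative to the mean of ankle day 0, the log2 ratio of Cox6a2 to Cox6a1 was -0.90 ± 0.29 (SD, n = 3) at ankle day 12 and -0.23 ± 0.31 (n = 3) at day 18, with an SD of 0.52 (n = 4) at day 0 itself. For Cox7a1 to Cox7a2 it was -1.01 ± 0.49 (n = 3) at day 12 and -0.36 ± 0.58 (n = 3) at day 18, with an SD of 0.81 (n = 4) at day 0. In fluid the Cox6a2 ratio lay between -1.63 and -0.92 in the 4 group means, and the Cox7a1 ratio between -1.90 and -1.16. These are descriptions, since each compares 2 probe sets.

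Between tissues, Cox6a2 and Cox7a1 had their highest median in ankle. The lowest, median and highest values of Cox6a2 were 6.95, 7.71 and 8.57 over the 19 ankles, 6.49, 6.61 and 6.76 over 13 fluid arrays and 6.48, 6.83 and 7.25 over 17 blood arrays. Ankle and fluid did not overlap, whereas ankle and blood did. The means of Cox6a2 in fluid and in blood of day 0 were under 6.85, so the differences are set against a level not above background and no fold is given. At day 0 Cox6a2 was higher in ankle than in blood by 1.42 ± 0.28 (adjusted p = 0.000114 by limma), and over days 3 to 18 it was lower in fluid than in ankle (-1.01 ± 0.14, adjusted p = 8.11e-07 by limma). The same 3 values of Cox7a1 were 3.61, 4.67 and 6.63 for ankle, 3.43, 3.63 and 4.23 for fluid and 3.03, 3.25 and 3.46 for blood, with ankle above blood at day 0 by 2.19 ± 0.51 (adjusted p = 0.000809 by limma). It was lower in fluid than in ankle (-0.90 ± 0.28, adjusted p = 0.0108 by limma), with overlapping ranges.

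The third pair could not be read in the same way. Cox8a, the common form, stayed between 3.27 and 4.20 on all arrays. Of the 2 probe sets of Cox8b, the brighter one gave 7.08, 7.53 and 7.81 for ankle, 7.03, 7.39 and 7.75 for fluid and 7.57, 8.23 and 8.51 for blood (lowest, median and highest), so that blood was the highest. Its difference between ankle and blood at day 0 was -0.56 ± 0.18, adjusted p = 0.00995 by limma, and the dimmer probe set, near background, moved the other way (0.65, adjusted p = 0.00565, over all probe sets, by limma). The call on the brighter probe set was lost without blood day 0 replicate 3 (-0.49, adjusted p = 0.0557 by limma), and the mean of both probe sets was 0.045 higher in ankle.

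In the ankle time course up to 2 of the 57 members were called against day 0 on any day, in the fit with 1 mean per day and no other term. At day 1 and day 3 no member passed limma's test (0 and 3 at an unadjusted p under 0.05, or 0% and 5.26%, against 1.82% and 8.62% of all genes), where 0% and 0.23% of all genes were called. At day 7 no member rose and 2 fell, while 3.09% of all genes rose and 3.64% fell. At day 12 no member rose and 1 fell (1.87% and 1.37% of all genes), and at day 18 none was called (2.01% of all genes in either direction; 11 members, 19.3%, at an unadjusted p under 0.05, against 11.8% of all genes). With array weights, 5 members rose and 14 fell at day 12, where 15.1% and 16.3% of all genes did, and 2 rose and 8 fell at day 18 (9.04% and 9.62%). With the replicate number as a term in the fit, 6, 8 and 4 members fell at days 7, 12 and 18 and none rose. Of all genes 6.45%, 3.36% and 3.11% fell in that fit. The median difference of the 57 genes was -0.03, -0.01, -0.16, -0.12 and -0.26 at days 1, 3, 7, 12 and 18, beside -0.03, -0.01, 0.00, -0.03 and 0.00 over all genes. RMA equalises the distributions of the arrays, which holds the median over all genes near 0 in comparisons of this kind. Of the members, 39, 41 and 41 of 57 were below day 0 in the mean at days 7, 12 and 18. These counts have no share of all genes beside them. These comparisons share the arrays of day 0.

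Ndufv1, the subunit of complex I that binds NADH, had the smallest p of the members at days 7 and 12. The 4 arrays of day 0 gave 9.94, 9.89, 10.39 and 10.26 and the 2 of day 1 gave 9.69 and 10.02. Those of day 3 gave 9.49, 9.54 and 9.50, and those of day 7 gave 9.32, 9.67, 9.46 and 9.59. All arrays of days 3 and 7 lay under those of day 0. It was 9.65, 9.27 and 9.56 on day 12 and 9.81, 9.69 and 9.80 on day 18, again without overlap. By limma the difference was -0.61 ± 0.15, adjusted p = 0.0149 for day 7 (1.53-fold lower) and -0.63 ± 0.16, adjusted p = 0.0341 for day 12. Day 3 (-0.61 ± 0.16, adjusted p = 0.131) and day 18 (-0.36 ± 0.16, adjusted p = 0.369) did not pass the test.

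Cox7a2l, a relative of Cox7a2 known for its part in joining complexes III and IV into supercomplexes, and shortened in the B6 strain, was 9.08, 9.10, 9.69 and 9.39 at day 0 and 8.68, 8.84, 8.75 and 8.26 at day 7. The 4 later arrays lay under the 4 earlier ones, and the gene fell by 0.68 ± 0.18 (adjusted p = 0.0251 by limma, 1.6-fold). At day 12 its arrays (8.98, 8.56 and 8.34) also lay under those of day 0, with a difference of -0.69 ± 0.19, adjusted p = 0.0592 by limma. Uqcrc1, a core subunit of complex III, and Ndufv3, an accessory subunit of complex I that is never above background, had the next smallest p-values at day 12, with -0.82 ± 0.25, adjusted p = 0.091 and -0.70 ± 0.24, adjusted p = 0.133 by limma. By complex, the median difference at day 12 was -0.12 for complex I, -0.06 for II, -0.37 for III and -0.09 for IV.

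The calls on Ndufv1 and Cox7a2l at day 7 were lost without day 0 replicate 3 (-0.52 and -0.55) or day 0 replicate 4 (-0.56 and -0.66), that on Cox7a2l also without day 7 replicate 4 (-0.56), and both when the beta-actin ratio entered the fit (-0.43 and -0.54). Ndufv1 at day 12 was lost without day 0 replicate 3 or 4 (-0.54 and -0.58) or day 12 replicate 2 or 3 (-0.51 and -0.66), and when the beta-actin ratio entered the fit (-0.39, adjusted p = 0.379 by limma). After quantile normalization anew Ndufv1 was lost at day 7 (-0.49, adjusted p = 0.0784 by limma) and day 12 (-0.63, adjusted p = 0.0523 by limma). Without day 0 replicate 2, 3 members fell at day 12, and without day 12 replicate 1, 4 fell. The shares of all genes called in these fits were not taken. Without the 4 ankles with liver transcripts 2 members fell at day 7 (4.65% of all genes), and 1 rose and 4 fell at day 12 (1.98% and 2.64%). The control transcript of beta-actin, as its 3' over its 5' probe set on the log2 scale, a sign of RNA length, gave 2.73 to 3.50 at day 0, 3.34 to 3.83 at day 7 and 3.26 to 4.25 at day 12. With the mean of the muscle markers as a covariate, Ndufv1 differed by -0.58 at day 12 (adjusted p = 0.103 by limma) and Cox7a2l by -0.64 at day 7 (adjusted p = 0.053 by limma), neither past the threshold.

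**Figure D3:**
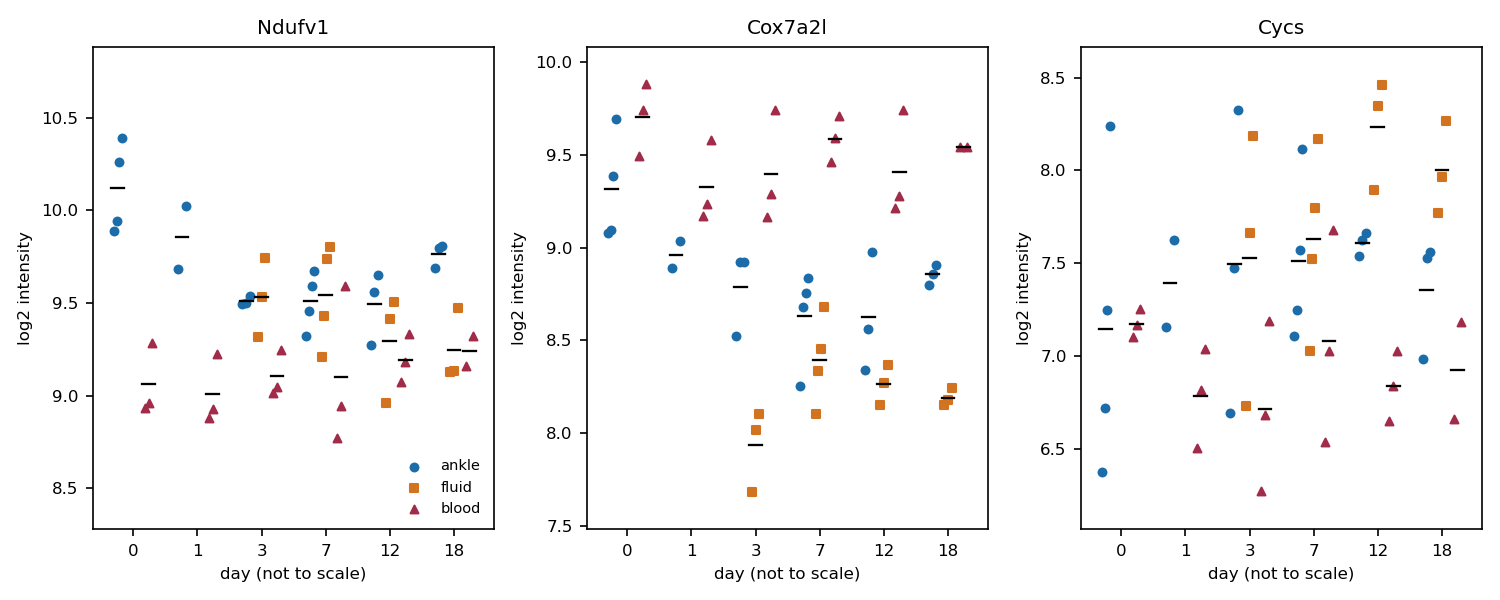
Log2 intensity (vertical axes, equal spans) of Ndufv1, Cox7a2l and Cycs by day after the first serum injection (horizontal axes, not to scale); each point is 1 array, colours and shapes are tissues, and black lines are group means. In ankle, Ndufv1 is lower at day 7 than at day 0 by 0.61 with no overlap; Cox7a2l is lowest in fluid and highest in blood; Cycs is highest in fluid at day 12, with a mean of 8.23.

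Cycs, cytochrome c itself, was not called in ankle without array weights. It was 6.37, 8.24, 7.24 and 6.72 at day 0, 7.11, 7.57, 8.12 and 7.24 at day 7 and 7.54, 7.66 and 7.62 at day 12, so that the arrays of day 0 spanned those of the later days. The difference was 0.37 ± 0.36, adjusted p = 0.683 at day 7 and 0.46 ± 0.39, adjusted p = 0.648 at day 12 by limma. With array weights it was called at day 12 (0.71, adjusted p = 0.0282 by limma). Cyc1, the cytochrome c1 of complex III, differed by -0.32 ± 0.18, adjusted p = 0.382 at day 7 and -0.42 ± 0.20, adjusted p = 0.417 at day 18. Of complex II, succinate dehydrogenase, the differences at day 7 were -0.11 for Sdha (near background), -0.34 for Sdhb, 0.06 for Sdhc and -0.29 for Sdhd, and none was called.

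In blood no gene of any kind was called against day 0 by limma at day 1, 3, 7, 12 or 18 (0% of all genes in each), and 5, 5, 0, 4 and 5 members had an unadjusted p under 0.05. Over all genes 589, 1702, 168, 513 and 1693 did. The median difference of the members at days 1, 3, 7 and 12 was -0.12, -0.15, -0.04 and -0.23, beside 0.03, 0.04, 0.02 and 0.03 over all genes. At day 3 all 8 complex III genes and 20 of 29 complex I genes had a lower mean than at day 0, with medians of -0.19 and -0.16. Complex IV stood at -0.04 there, with 6 of 15 above day 0. At day 18 the members lay evenly on both sides (28 above, 29 below). With array weights 7 members rose and 9 fell at day 3, where 28.8% and 19.1% of all genes did. At day 12, 6 rose and 7 fell (14% and 13.1%), and at day 18, 5 rose and 2 fell (17.7% and 10.5%). Without blood day 3 replicate 1, 3 rose and 2 fell at day 3, and the share of all genes called in that fit was not taken.

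In fluid no member passed limma's test against day 3, where 2.56%, 2.7% and 3.19% of all genes were called at days 7, 12 and 18 (1, 7 and 1 members of 57 at an unadjusted p under 0.05, against 10.4%, 12.5% and 15.1% of all genes). The median difference was 0.29 at day 12, with 44 of 57 members above day 3, beside -0.06 over all genes, and 0.08 at day 18. Without the 2 arrays washed out of ankles it was 0.20 at day 12, and with array weights 0.19. Complex III had a median of 0.48, complex I of 0.29 and complex IV of 0.07 at day 12. Ndufb9, an accessory subunit of complex I, came nearest to the threshold (0.82 ± 0.23, adjusted p = 0.0901 by limma), with 6.68, 7.32 and 7.53 at day 3 and 7.92, 8.20 and 7.87 at day 12, and no overlap. Cycs was 6.73, 7.66 and 8.18 at day 3 and 7.89, 8.34 and 8.46 at day 12 (0.71 ± 0.33, adjusted p = 0.402 by limma), and the lowest value came from the washed-out array of day 3.

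Against blood of the same days, fluid cells had higher levels of most subunits of complexes I and II, of 4 of the 8 genes of complex III and of cytochrome c, while complex IV was split. Over the 4 shared days, 31 of 57 members were higher and 12 lower in fluid, where 24.8% of all genes were higher and 34% lower. In complex I 17 of 29 were higher and 3 lower, in complex II 4 of 4 were higher, and in complex III 4 of 8 were higher and 1 lower. In complex IV 5 of 15 were higher and 8 lower. The median difference was 0.35, 0.59, 0.35 and -0.25 for complexes I to IV, 0.35 over the members and -0.08 over all genes. The complex IV median includes Cox6a2, Cox6b1, Cox8a and Cox5a, called lower, and Cox7a1, called higher, all with fluid means under 6.85. Of the 9 complex IV genes above background in every group, Cox7a2, Cox7b, Cox5b, Cox6a1 and Cox6c had higher means in fluid. Cox7a2l, Cox8b, Cox8c and Cox4i1 had lower ones. Quantile normalization of these arrays anew gave 26 higher and 16 lower with a median of 0.19, and the share of all genes in that fit was not taken.

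Ndufb6, an accessory subunit of the membrane arm of complex I, differed most among the members that were higher. Its lowest, median and highest values were 7.59, 8.56 and 9.22 in fluid and 6.49, 7.11 and 7.58 in blood over all days, and fluid was 2.68-fold higher (1.42 ± 0.14, adjusted p = 3.54e-09 by limma). The lowest fluid array lay just above the highest blood array. Ndufc1, another accessory subunit, was higher by 0.78 and Ndufb8 by 0.96, both called. The 3 members of complex I that were lower, Ndufa6 (-0.64), Ndufa12 (-0.25) and Ndufa1 (-0.24), had a fluid mean under 6.85. Ndufa1 lost its call with the mean of its probe sets (-0.16) and without blood day 18 replicate 1 (-0.22).

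All 4 subunits of succinate dehydrogenase were higher in fluid. Sdhc, a membrane anchor, was 8.91, 9.18 and 9.99 in fluid and 7.83, 8.35 and 8.51 in blood, without overlap, a difference of 1.00 ± 0.11, adjusted p = 1.84e-08 by limma and 2.01-fold. The other anchor Sdhd differed by 0.61, the iron-sulphur subunit Sdhb by 0.53 and the flavoprotein Sdha, near background, by 0.56. In complex III, Uqcrq (1.21 ± 0.14, adjusted p = 5.27e-08 by limma) and Uqcr11 (1.14 ± 0.13, adjusted p = 3.86e-08 by limma), both small accessory subunits, and Uqcrb (1.01 ± 0.15, adjusted p = 1.55e-06 by limma) led. Uqcrh, which helps cytochrome c dock, was lower (-0.36 ± 0.11, adjusted p = 0.00812 by limma). Cyc1 gave 9.84, 10.13 and 10.51 in fluid and 9.82, 10.18 and 10.48 in blood, with a difference of 0.01 ± 0.09, adjusted p = 0.911 by limma. After quantile normalization anew it was lower in fluid (-0.32, adjusted p = 0.00623 by limma). Its dimmer probe set, with non-unique probes and also above background, had lower means in fluid on each shared day. At days 3, 7, 12 and 18 these were 9.52, 9.46, 9.18 and 9.60 in fluid and 9.91, 9.53, 9.75 and 9.85 in blood.

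Cycs was 6.73, 7.89 and 8.46 in fluid and 6.27, 7.02 and 7.68 in blood, with overlapping ranges, and 1.94-fold higher in fluid (0.96 ± 0.16, adjusted p = 1.27e-05 by limma). Cox7a2l was the reverse, with 7.68, 8.18 and 8.68 in fluid and 9.16, 9.54 and 9.88 in blood. No array overlapped, and fluid was 2.45-fold lower (-1.29 ± 0.09, adjusted p = 3.32e-12 by limma), which was the smallest p of all 57 members. Its relative Cox7a2 was higher in fluid (0.87 ± 0.15, adjusted p = 2.77e-05 by limma), as were Cox7b (0.65) and Cox5b (0.63) and, below background in both, the muscle form Cox7a1 (0.48 ± 0.07, adjusted p = 2.35e-06 by limma). Cox6a1 (0.36 ± 0.14, adjusted p = 0.0333 by limma) lost its call after quantile normalization anew (0.02). Its call was also lost in several fits that left out 1 array. The differences there ran from 0.28 (without blood day 7 replicate 1) to 0.34 (without fluid day 3 replicate 2). The other lower members of complex IV were Cox8b (-0.71), Cox6b1 (-0.49), Cox8c (-0.36), Cox4i1 (-0.34), Cox6a2 (-0.25) and, near background, Cox8a (-0.27) and Cox5a (-0.19). Of these, Cox8b and Cox6b1 rest on probe sets with non-unique probes, while Cox5a lost its call in 18 of 32 settings and Cox8c with the mean of its probe sets (-0.15). Cox6b1 and Cox6a2 also had fluid means under 6.85. The other probe set of Cox4i1 did not follow (-0.04, adjusted p = 0.818, over all probe sets, by limma).

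**Figure D4:**
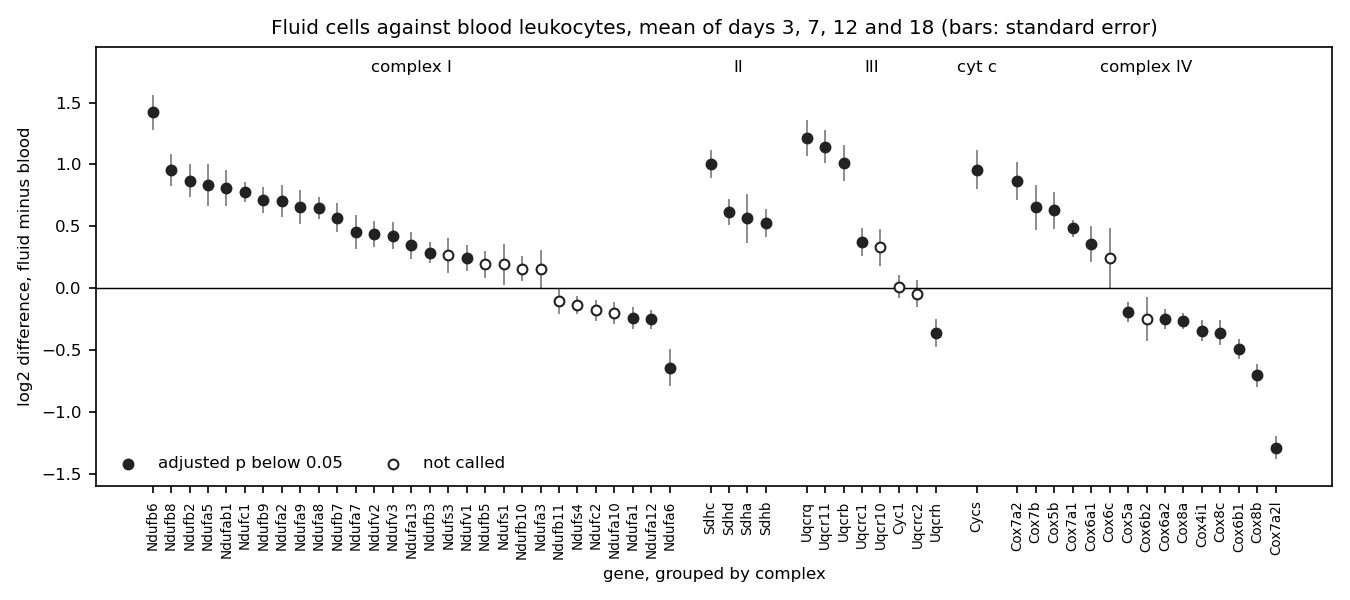
Log2 difference between fluid cells and blood leukocytes (vertical axis, mean of days 3, 7, 12 and 18, bars are standard errors from limma) for the 57 genes ordered within complexes (horizontal axis). Filled points passed an adjusted p of 0.05: complexes I, II and III are mostly above 0, and complex IV runs from Cox7a2 at 0.87 to Cox7a2l at -1.29.

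The cells of the 2 preparations differed by their markers. The mean of 6 B cell markers was 6.07 to 6.78 in fluid and 9.33 to 9.86 in blood, and of 8 T cell markers 5.31 to 5.58 and 7.16 to 8.16. Mature neutrophil markers (12 genes) were at 8.03 to 8.50 and 7.27 to 8.20, and monocyte and macrophage markers (10 genes) at 9.21 to 10.06 and 6.13 to 6.54. Fibroblast markers (8 genes) were at 7.01 to 9.63 and 5.54 to 5.89. Summed over the list, B cell markers gave intensities of 451 to 864 in fluid and 5412 to 8305 in blood. Erythroid markers (6 genes) were at 6.20 to 7.45 and 7.55 to 8.41, although red cells of the blood had been lysed. The part of these cell types in the differences of the respiratory genes was not tested.

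Against ankle, fluid cells had lower levels of 12 members and higher levels of 3, where 19.4% of all genes were lower and 18.7% higher. Beside the muscle forms, the lower members included Ndufa5, an accessory subunit of the arm of complex I in the matrix, with 10.21, 10.87 and 11.66 in ankle and 9.02, 9.63 and 10.91 in fluid (-1.14 ± 0.18, adjusted p = 4.72e-06 by limma, 2.2-fold). Cox7a2l was again lower (-0.53 ± 0.09, adjusted p = 2.59e-05 by limma), as were Ndufv2 (-0.49), Cox6c (-0.80), Uqcrh (-0.43), Uqcr10 (-0.40) and Cox6a1 (-0.40), and near background Ndufa12 (-0.31). Cox6c differed by -0.29 as the mean of its probe sets and by -0.49 without the washed-out arrays, and its next brightest probe set was not lower (0.07, adjusted p = 0.722 over all probe sets, by limma). The 3 higher members were Sdhb (0.61 ± 0.17, adjusted p = 0.00384 by limma), Ndufb8 (0.48 ± 0.15, adjusted p = 0.01 by limma) and Ndufa9 (0.30 ± 0.11, adjusted p = 0.0388 by limma). The call on Ndufa9 was lost in 13 of the 26 fits that left out 1 array, and Cox6a1 was not called without the 2 fluid arrays of other amplification (-0.31, adjusted p = 0.0512 by limma). With array weights 8 members were higher and 22 lower (24% and 32.5% of all genes).

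At day 0, before arthritis, ankle exceeded blood in 23 members and was lower in 2, where 22.4% of all genes were higher and 19.8% lower. Uqcr11 (1.56 ± 0.24, 2.95-fold) and Uqcrq (1.53 ± 0.24, 2.9-fold) of complex III led with adjusted p of 3.02e-06 and 5.81e-06 by limma. The 4 ankles of day 0 gave 9.15, 8.95, 8.79 and 8.41 for Uqcr11 and the 3 blood samples 7.22, 7.46 and 7.13. In complex I 13 of 29 were higher and 0 lower, led by Ndufv1 (1.06 ± 0.16, 2.08-fold), Ndufa8 (0.83 ± 0.14, 1.78-fold) and Ndufv2 (1.25 ± 0.21, 2.38-fold), each called by limma. Complex IV had 4 higher, Cox6a2, Cox7a1, Cox7a2 (0.78 ± 0.25, adjusted p = 0.0128 by limma) and Cox5b (0.73 ± 0.27, adjusted p = 0.0262 by limma), and 2 lower, Cox8b and Cox6b2 (-0.98 ± 0.31, adjusted p = 0.0112 by limma), of which Cox6b2 was lost without blood day 0 replicate 2 (-0.79, adjusted p = 0.0793 by limma). Both Cox8b and Cox6b2 rest on probe sets with non-unique probes, and the ankle mean of Cox6b2 at day 0 was 6.27, under the background level. Cox7a2 was lost without blood day 0 replicate 1 (0.69) or replicate 3 (0.61), and Sdhd (0.73 ± 0.23, adjusted p = 0.0107 by limma) without ankle day 0 replicate 2 (0.54). Other probe sets of 2 genes moved against the chosen one here: Cox6c gave 0.37 by the chosen one and a negative value by the next brightest (-1.02, adjusted p = 0.002 by limma), and Ndufa1 0.29 by the chosen one and a negative value by the other (-0.63, adjusted p = 0.0103 by limma). Cycs differed by -0.03 ± 0.35, adjusted p = 0.958 and Sdhb by 0.20 ± 0.29, adjusted p = 0.629, both by limma.

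The day 7 response of ankle was set against that of blood in a test of the difference itself, and no member was called by limma (2.28% of all genes; 4 members, 7.02%, at an unadjusted p under 0.05, against 10.4% of all genes). The median over the members was -0.07, beside -0.03 over all genes.

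Other mitochondrial genes gave the surroundings of these values. Between fluid and blood, where 24.8% of all genes were higher and 34% lower, 7 of 14 ATP synthase genes were higher and 0 lower, 32 of 61 genes of the mitochondrial ribosome higher and 7 lower, and 5 of 15 genes of the citric acid cycle and pyruvate dehydrogenase higher and 3 lower. Of 13 assembly factors 2 were higher and 4 lower; the higher ones were Uqcc2, which acts for complex III (1.53 ± 0.15, adjusted p = 1.89e-09 by limma), and the copper chaperone Cox17 of complex IV (1.19 ± 0.16, adjusted p = 3.31e-07 by limma). The nucleotide carrier Slc25a4, abundant in muscle, was higher in ankle than in blood at day 0 (2.15 ± 0.31, adjusted p = 1.34e-06 by limma) and lower in fluid than in ankle (-1.29 ± 0.17, adjusted p = 4.42e-07 by limma).

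In ankle, Idh3g, a subunit of isocitrate dehydrogenase in the citric acid cycle, fell at day 7 (-0.80 ± 0.23, adjusted p = 0.0429 by limma) and day 12 (-0.99 ± 0.25, adjusted p = 0.0322 by limma). Mrps34 of the mitochondrial ribosome fell at both days too (-0.97 ± 0.19, adjusted p = 0.00349 and -0.97 ± 0.20, adjusted p = 0.0103 by limma), with means under 6.85 on both days, and both genes were called lower at day 18 as well. At day 18 the ATP synthase gene Atp5o fell (-0.63 ± 0.16, adjusted p = 0.0476 by limma). Each was the 1 called member of its list at that day, of 15, 61 and 14 measured. Of 10 regulators, among them Ppargc1a, Gabpa, Tfam and Esrra, 0 fell and 0 rose at day 7 by limma (1 at an unadjusted p under 0.05).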

How the data were processed

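Expression was measured on 49 Affymetrix mouse arrays. The authors deposited linear intensities per probe set made with RMA, per the submitters' processing notes, with no version named there. RMA equalises arrays, so a change shared by most genes would not show. The log2 of the intensity was analysed. Of 12488 probe sets, 10833 had 1 gene symbol in the platform annotation, 396 had several and 1259 none, control probe sets included. Each gene was represented by its brightest probe set.

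limma 3.58.1 in R 4.3.3 (lmFit, eBayes with trend) was fitted over 8251 genes, with 1 mean per tissue and day. Ankle, blood and fluid had separate fits, and comparisons between tissues used both. P-values were two-sided, with Benjamini-Hochberg adjustment over all genes and a threshold of 0.05 in each of 17 comparisons. The procedure was run on simulated data with independent normal noise for each gene and array. Those data held no structure by replicate number and no outlying arrays. The members and lists were chosen with earlier results of these data known. Named were the isoform pairs, Cycs, Cyc1, complex II, and up to 3 called members per direction and complex with the smallest p, with called members against the majority; others, such as Uqcrc1 and Ndufb9, were chosen after their values were seen. Alternatives are given in the closing section.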

Additional observations from a re-analysis of the deposited data

Results flagged for a closer look

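In each of the 3 groups of 4 arrays, 37 named genes were searched for an array far from the others by its gap relative to the range (Dixon's 95% critical value), which marked 4 of 111 sets; chance marks about 1 in 20. Cox8a was 3.35 in ankle day 0 replicate 2 against 3.71 to 3.74 in the other 3, all near background. Uqcrq was 10.60 in ankle day 7 replicate 1, which carries liver transcripts, against 9.93 to 10.03. In fluid day 7 replicate 2, Sdhc was 9.99 against 9.12 to 9.18 and Cox7a2 was 9.27 against 8.92 to 8.95.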

How the results depend on the processing

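Of 58 called differences and slopes of named genes, 42 kept their call in every setting run and 16 lost it in at least 1; 20 of 185 uncalled ones were called in at least 1. Of 430 counts and medians under settings other than leaving out 1 array, 391 stayed close to the value reported and 39 moved; unless the setting itself shows it, the cause was not tested. Among these settings, shares over all genes were taken for array weights, a replicate block and the fit without the ankles with liver transcripts. For the others they were not taken, so those counts have no background beside them. Array weights moved most. They gave 1 member higher and 3 lower at ankle day 3 (2.75% and 3.62% of all genes) and 1 higher at day 7 (7.5%). At day 12 they gave 5 higher and 14 lower (15.1% and 16.3%), and at day 18 2 higher and 8 lower (9.04% and 9.62%). In blood they gave 7 higher and 9 lower at day 3 (28.8% and 19.1% of all genes). They gave 6 and 7 at day 12 (14% and 13.1%), and 5 and 2 at day 18 (17.7% and 10.5%). In fluid they gave 2 higher and 1 lower at day 12 (9.64% and 10.2% of all genes), where the median was 0.19, and 8 lower at day 18 (17.5%). Between tissues they gave 8 higher and 22 lower for fluid against ankle (24% and 32.5% of all genes) and 4 lower for ankle against blood (26%). They gave 3 lower for the difference in the day 7 response (3.96%). For slopes on the muscle markers they gave 7 positive and 2 negative, without a share of all genes.

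Same-numbered samples correlated in their deviations at -0.18 to 0.73 in ankle (median 0.20, other pairs -0.11), -0.45 to 0.82 in blood (0.19 and -0.13) and -0.31 to 0.68 in fluid (-0.06 and -0.06). Not every pair was above 0.1, so the main fits did not pair the samples by number. A rule on the smallest of many correlations cannot exclude that same-numbered samples share something. In ankle and blood the median was still higher for same-numbered pairs. Fits without a block do not allow for what same-numbered samples share. A replicate block gave 6, 8 and 4 members lower at ankle days 7, 12 and 18, where 6.45%, 3.36% and 3.11% of all genes were lower. It gave 4 lower for ankle against blood (22.1% of all genes) and 2 lower for the difference in response (2.51%). With it the calls on Cox5a, Cox8c, Ndufa1 and Cox6a1 between fluid and blood (-0.10, -0.22, -0.13 and 0.28) were lost. The calls on Cox7a1 and Ndufa9 between fluid and ankle (-0.86 and 0.30) were lost too. Quantile normalization anew gave 1 lower at ankle day 7 and 0 at day 12, the beta-actin covariate 0 and 0, and the muscle covariate 0 at day 12. Without the ankles with liver transcripts 1 was higher and 4 lower at day 12 (1.98% and 2.64% of all genes). For ankle against blood, centring gave 4 lower and the mean of probe sets 1 lower. The fluid day 12 median was 0.20 without the washed-out arrays, and 1 positive slope was called without the genes of lowest level, among which Cox7a1 falls. Cyc1 (-0.32 between fluid and blood after quantile normalization anew) and Cox8b (0.045 between ankle and blood by the mean of probe sets) turned direction.

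With 1 array left out, the members lower ranged from 0 to 3 at ankle day 7 (0 without day 0 replicate 3 or 4) and from 0 to 4 at day 12 (0 also without day 12 replicate 2 or 3). In blood at day 3, 0 to 3 were higher and 0 to 2 lower, the highest counts without day 3 replicate 1. The fluid day 12 median ranged from 0.19 (without day 12 replicate 2) to 0.32. For ankle against blood 1 to 3 were lower (1 without blood day 0 replicate 2 or 3), and 1 to 2 positive slopes were called (1 without ankle day 7 replicate 2 or 3). Signal near background limits Cox5a, Cox7a1, Cox8a, Ndufa1, Ndufa12, Ndufc2, Ndufs4, Ndufv3 and Sdha.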
